A study of Homo sapiens with 3 samples.

Results

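The 43 genes described here are interferon-stimulated genes, taken by their symbols from a table of 26485 gene entries. All 43 were found, each as 1 entry. CAMA1 cells, a line grown from a human breast tumour, were used at fewer than 10 passages; the labels give them as estrogen receptor positive (ER+) with amplified FGFR1. They had been kept for 48 h in medium lacking estradiol, and their poly-A RNA was sequenced in 3 libraries described as biological replicates. There was 1 group, with no treated or interferon-exposed cells, so the questions the design allows are how high these genes stood and how far the 3 libraries differed in them.

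Interferons are secreted proteins that cells release on sensing viral or displaced nucleic acids. Type I interferons bind the receptor IFNAR1-IFNAR2, whose kinases JAK1 and TYK2 phosphorylate STAT2. A complex that holds STAT2 and IRF9 binds the interferon-stimulated response element in promoters, while type II interferon acts mainly through the gamma-activated sequence. The genes turned on in this way include RNA sensors, the transcription factors of the pathway itself, and antiviral effectors such as the IFIT, OAS and MX proteins. Many tumour cell lines keep a low standing level of these transcripts without added interferon.

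Library totals were 26473939, 26592335 and 30745412 counts in replicates 1, 2 and 3. The labelled cell type was borne out by its markers: all 7 luminal epithelial genes examined stood above 10 TPM, a level that scales counts by gene length and library total, with a median of 803 TPM. Of 7 immune markers, none reached 10 TPM in the mean of the libraries, but 2 had at least 10 counts in each library. These were LYZ at 6.48 TPM and CD68 at 3.08 TPM. PTPRC had 3, 3 and 2 counts and CD3E had 1, 0 and 0. The summed level of the 7 immune markers was 12.6, 9.56 and 11.5 TPM in replicates 1, 2 and 3. The 4 fibroblast markers summed to 10.7, 10.8 and 10.3 TPM, nearly all from COL1A1, and COL1A2 was at 0 counts in each library. The 3 endothelial markers summed to 0.253, 0.157 and 0.0578 TPM. Replicate 3 stood apart from the other 2 libraries in many of the 43 genes, as described below, and the count of genes called is also given without it. In bulk RNA, fewer expressing cells and less RNA per cell cannot be told apart.

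Promoter windows from RefSeq (GRCh38.p14, 250 bases before to 50 after an annotated start, 47 windows) were matched for 35 of the 43 genes. The core of the interferon-stimulated response element was searched as GAAA, any 2 bases, then GAAA, on both strands, with overlapping matches allowed. It was present in at least 1 window of 24 of these 35 genes (68.6%), against 1195 of 27305 genes with a window (4.38%). The gamma-activated sequence, searched as TTC, any 3 bases, then GAA, occurred in 12 of the 35 genes (34.3%), against 9.38% of all genes with a window. A match is a string of letters, not a bound site. The windows of genes on which the results turn follow, with the response element in capitals. IFIT1, OAS3, MX1 and RSAD2 varied between the libraries (below), BST2 was the highest member, and ISG15 lay between.
IFIT1 (chr10:89392373-89392672, plus strand): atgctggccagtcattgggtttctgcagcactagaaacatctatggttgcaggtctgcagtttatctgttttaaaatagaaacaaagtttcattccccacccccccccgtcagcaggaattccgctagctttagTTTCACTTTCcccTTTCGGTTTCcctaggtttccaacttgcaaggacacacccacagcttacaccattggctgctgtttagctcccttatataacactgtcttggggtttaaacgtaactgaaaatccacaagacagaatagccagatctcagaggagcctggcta
OAS3 (chr12:112938224-112938523, plus strand): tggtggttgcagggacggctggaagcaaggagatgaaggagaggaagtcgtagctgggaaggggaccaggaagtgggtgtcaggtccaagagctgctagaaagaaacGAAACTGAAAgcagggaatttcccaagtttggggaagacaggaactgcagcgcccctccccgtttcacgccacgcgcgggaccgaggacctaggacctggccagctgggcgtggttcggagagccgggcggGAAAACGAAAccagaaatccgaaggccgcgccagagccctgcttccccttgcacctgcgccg
MX1 (chr21:41420308-41420607, plus strand): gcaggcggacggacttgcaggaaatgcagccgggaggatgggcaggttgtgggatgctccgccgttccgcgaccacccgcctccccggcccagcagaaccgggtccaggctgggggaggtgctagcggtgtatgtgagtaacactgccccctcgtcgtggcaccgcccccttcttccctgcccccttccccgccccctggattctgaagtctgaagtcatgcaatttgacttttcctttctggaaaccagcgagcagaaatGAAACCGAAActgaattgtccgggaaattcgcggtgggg
RSAD2 (chr2:6877527-6877826, plus strand): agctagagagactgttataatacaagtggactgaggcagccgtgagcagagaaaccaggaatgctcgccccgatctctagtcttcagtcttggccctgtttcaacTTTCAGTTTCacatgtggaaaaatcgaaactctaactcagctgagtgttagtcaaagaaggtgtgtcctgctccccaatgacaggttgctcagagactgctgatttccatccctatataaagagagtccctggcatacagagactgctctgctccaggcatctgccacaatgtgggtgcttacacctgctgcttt
ISG15 (chr1:1013247-1013546, plus strand): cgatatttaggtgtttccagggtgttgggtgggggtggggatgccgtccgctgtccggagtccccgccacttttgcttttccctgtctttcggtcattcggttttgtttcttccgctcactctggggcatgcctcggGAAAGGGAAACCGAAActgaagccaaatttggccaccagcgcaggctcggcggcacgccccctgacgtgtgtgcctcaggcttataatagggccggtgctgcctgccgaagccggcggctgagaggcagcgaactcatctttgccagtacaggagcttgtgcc
BST2 (chr19:17405581-17405880, minus strand): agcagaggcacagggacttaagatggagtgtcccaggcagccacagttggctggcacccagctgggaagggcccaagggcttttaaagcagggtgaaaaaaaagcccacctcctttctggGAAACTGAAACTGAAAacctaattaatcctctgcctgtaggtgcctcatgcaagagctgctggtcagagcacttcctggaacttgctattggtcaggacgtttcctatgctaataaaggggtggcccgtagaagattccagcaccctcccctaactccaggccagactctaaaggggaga
Counting from 0 at the annotated first base, the matches began at -116 and -103 in IFIT1, at -143 and -12 in OAS3, at 11 in MX1, and at -145 in RSAD2. In BST2, at -130 and -124, and in ISG15, at -113 and -107, 2 matches overlapped. MX1 had 3 windows in the table and RSAD2 2, of which 1 each is shown. IRF1, which has no response element match, is shown with its gamma-activated sequence match in capitals, starting at -124.
IRF1 (chr5:132490724-132491023, minus strand): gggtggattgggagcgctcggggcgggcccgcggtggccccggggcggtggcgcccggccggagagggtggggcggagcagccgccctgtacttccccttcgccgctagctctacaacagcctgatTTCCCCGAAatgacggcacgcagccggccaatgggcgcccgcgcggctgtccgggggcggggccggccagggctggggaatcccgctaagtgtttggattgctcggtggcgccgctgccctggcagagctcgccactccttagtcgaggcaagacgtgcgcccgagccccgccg

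CAMA1 cells held most interferon-stimulated transcripts at modest levels without added interferon. Of the 43 genes, 37 (86.0%) had at least 10 counts in each library, called detected here, against 54.9% of all entries and 67.3% of 18985 protein-coding entries. The median level of the 43 was 7.40 TPM, against 1.5 TPM over all entries and 8.07 TPM over protein-coding entries. None had 3 or fewer counts in every library. The 19 genes at 10 TPM or above were 44.2% of the list, against 36.8% of all entries and 47.8% of protein-coding ones. Levels spanned from 0.102 TPM for SAMD9L to 309 TPM for BST2.

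**Figure D1:**
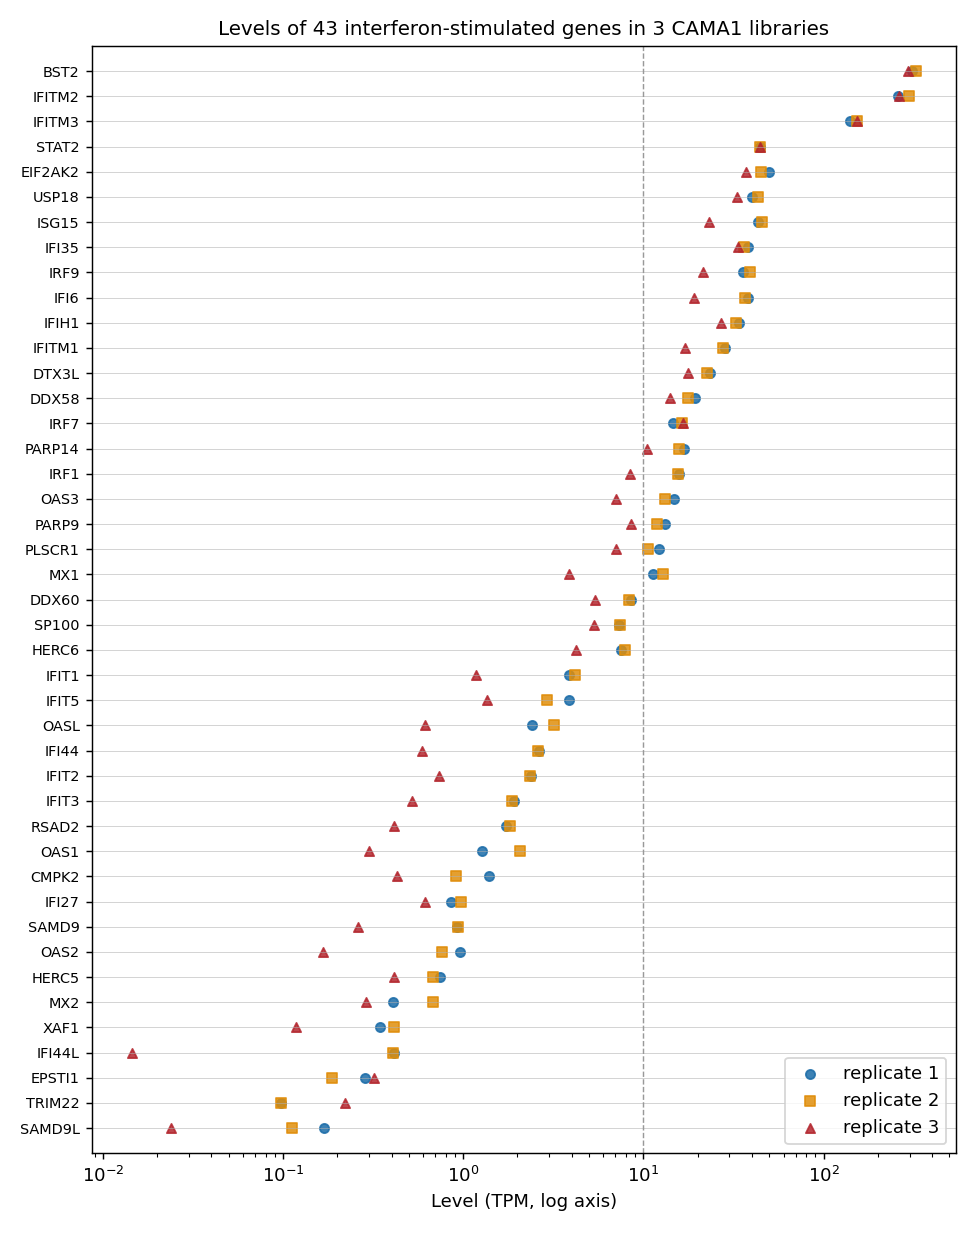
Level of each of the 43 genes (rows, ordered by mean) in TPM on a log axis, with 1 marker for each library and a dashed line at 10 TPM. Replicate 3 (triangles) is the left-most marker for most of the 43 genes, while BST2, IFITM2, IFITM3 and STAT2 have the 3 markers close together.

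The membrane restriction factors were by far the most abundant group. BST2 (tetherin, which holds budding virus at the cell surface; chromosome 19, 17402939 to 17405648) had 308, 327 and 293 TPM in replicates 1, 2 and 3. IFITM2 and IFITM3, which block virus entry through endosomes, lie close together on chromosome 11 (308107 to 309410 and 319673 to 320914). IFITM2 had 258, 296 and 261 TPM and IFITM3 had 140, 154 and 153 TPM. The 3 libraries were close in all of these genes. Between the IFITM2 and IFITM3 loci lies IFITM1 (313991 to 315272), a plasma membrane protein gene, at 28.5, 27.5 and 17.0 TPM, lowest in replicate 3. The 3 IFITM genes are near-identical in parts and had fractional counts, so the division of reads among them is uncertain, as it is for USP18, which has near-copies elsewhere.

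The 4 transcription factors of the pathway were all detected, each with a mean over the libraries above 10 TPM. STAT2 had 44.4, 44.2 and 44.1 TPM, the most even of the 4. IRF9, its DNA-binding partner, had 35.6, 39.0 and 21.4 TPM. IRF1, a factor induced early by type II interferon, had 15.8, 15.7 and 8.42 TPM. IRF9 and IRF1 were thus lower in replicate 3, whereas IRF7, the factor that amplifies interferon-alpha production in infected cells, had 14.6, 16.3 and 16.6 TPM and was lowest in replicate 1. The deposited length of IRF7 counts an alternate contig as well and is 2.0 times its exon length on chromosome 11; with the latter its level was 30.7 TPM, against 15.8 TPM.

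Among RNA sensors, the helicase genes IFIH1 (MDA5) and DDX58 (RIG-I) averaged 31.2 ± 3.77 and 17.1 ± 2.81 TPM (SD, n = 3). EIF2AK2, the kinase PKR, which stops translation on double-stranded RNA, had 44.0 ± 6.57 TPM, and the helicase gene DDX60 had 7.40 ± 1.73 TPM. In the ISG15 system, ISG15 itself, a ubiquitin-like modifier, had 43.4, 45.6 and 23.1 TPM, with replicate 3 apart from the other 2. USP18, the protease that removes ISG15 and damps receptor signalling, had 38.8 ± 5.29 TPM. HERC5, the main human ISG15 ligase, had 0.614 ± 0.178 TPM, and HERC6, which holds that role in mouse, 6.56 ± 2.02 TPM. The head-to-head genes PARP9 and DTX3L, which code for partners in an ADP-ribosyl and ubiquitin transfer complex, had 11.2 ± 2.44 and 21.3 ± 3.12 TPM, and PARP14 nearby on chromosome 3 had 14.4 ± 3.37 TPM. Exons of PARP9 and DTX3L overlap over 185 bases on opposite strands, and the sources used here do not say whether counting used strand.

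The classical antiviral effectors stood far lower. The 4 IFIT genes ranged from 1.44 to 3.06 TPM. OAS3, a synthetase of the antiviral 2-5A messenger, stood out of its family at 11.7 TPM, against 2.07, 1.21 and 0.631 TPM for OASL, OAS1 and OAS2. MX1, a dynamin-like GTPase gene active against influenza virus, had 9.32 TPM and its neighbour MX2 had 0.458 TPM. RSAD2 (viperin, which makes a chain-terminating nucleotide) had 1.32 TPM and the adjoining CMPK2 0.912 TPM. Of the genes named for induction by interferon alone, IFI35 had 36 ± 2.43 TPM and IFI6, a mitochondrial survival factor gene, 31.3 ± 10.6 TPM, while IFI44, IFI27 and IFI44L had 1.95, 0.813 and 0.278 TPM. IFI27 has the same doubled length as IRF7 and stood at 1.58 TPM with its exon length on chromosome 14. The remaining 7 genes ran from PLSCR1, a scramblase gene, at 9.95 TPM and SP100, a nuclear body gene, at 6.68 TPM down to SAMD9, XAF1, EPSTI1, TRIM22 and SAMD9L, all under 1 TPM.

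Within 13 pairs of neighbouring or related genes, log2 ratios of TPM were formed inside each library (0.01 TPM added). OAS3 exceeded OAS2 by 4.45 ± 0.77, MX1 exceeded MX2 by 4.23 ± 0.53 and HERC6 exceeded HERC5 by 3.39 ± 0.11 (SD, n = 3). For IFI44 over IFI44L the ratio was 3.31 ± 1.14, for SAMD9 over SAMD9L 2.78 ± 0.34, for DTX3L over PARP9 0.94 ± 0.12 and for PARP14 over PARP9 0.35 ± 0.05. The ratio of IFITM1 to IFITM2 was -3.51 ± 0.39, that of IFITM3 to IFITM2 -0.86 ± 0.09, that of DDX58 to IFIH1 -0.87 ± 0.07 and that of IFIT3 to IFIT2 -0.37 ± 0.09. These 11 ratios, and OAS1 over OAS2 at 0.88 ± 0.52, kept their sign in 3 of 3 libraries. Flipping signs over the libraries gave an exact two-sided permutation p of 0.25 for each (0.271 after Benjamini-Hochberg adjustment over 13 pairs), and 3 libraries can give no smaller p. IFIT1 over IFIT5, at 0.10 ± 0.36, changed sign between libraries (exact p = 1.0). Without division by length, OAS1 over OAS2 was -0.73. Ratios that involve a gene under 1 TPM depend on the amount added. With 1 TPM added, OAS3 over OAS2 was 2.94, MX1 over MX2 2.69, HERC6 over HERC5 2.20, IFI44 over IFI44L 1.12, SAMD9 over SAMD9L 0.61 and OAS1 over OAS2 0.39. IFI44L rested on 1 count in replicate 3.

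Many of these genes shared a low value in replicate 3. Variation was tested in edgeR against the negative binomial dispersion trend, a measure of how much genes of a given level vary between these libraries. Of 36 members that passed the filter on low counts, 13 varied beyond that trend at an adjusted p under 0.05 (36.1%), against 190 of 14453 genes (1.31%). All 13 were lowest in replicate 3; over all genes 102 (0.706%) were called and lowest there, 74 (0.512%) lowest in replicate 1 and 14 (0.0969%) lowest in replicate 2. Beyond Poisson sampling alone, 32 of the 36 members varied, against 6017 of all tested genes (41.6%). The 13 called against the trend were MX1, OAS3, IFIT1, OAS2, OASL, RSAD2, IFI44, SAMD9, IFIT2, IRF1, IFIT3, IFIT5 and IRF9. Without replicate 3, no member was called by edgeR, and none of 40 tested had an unadjusted p under 0.05. Without replicate 1, 8 were called and without replicate 2, 6, all among the 13.

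**Figure D2:**
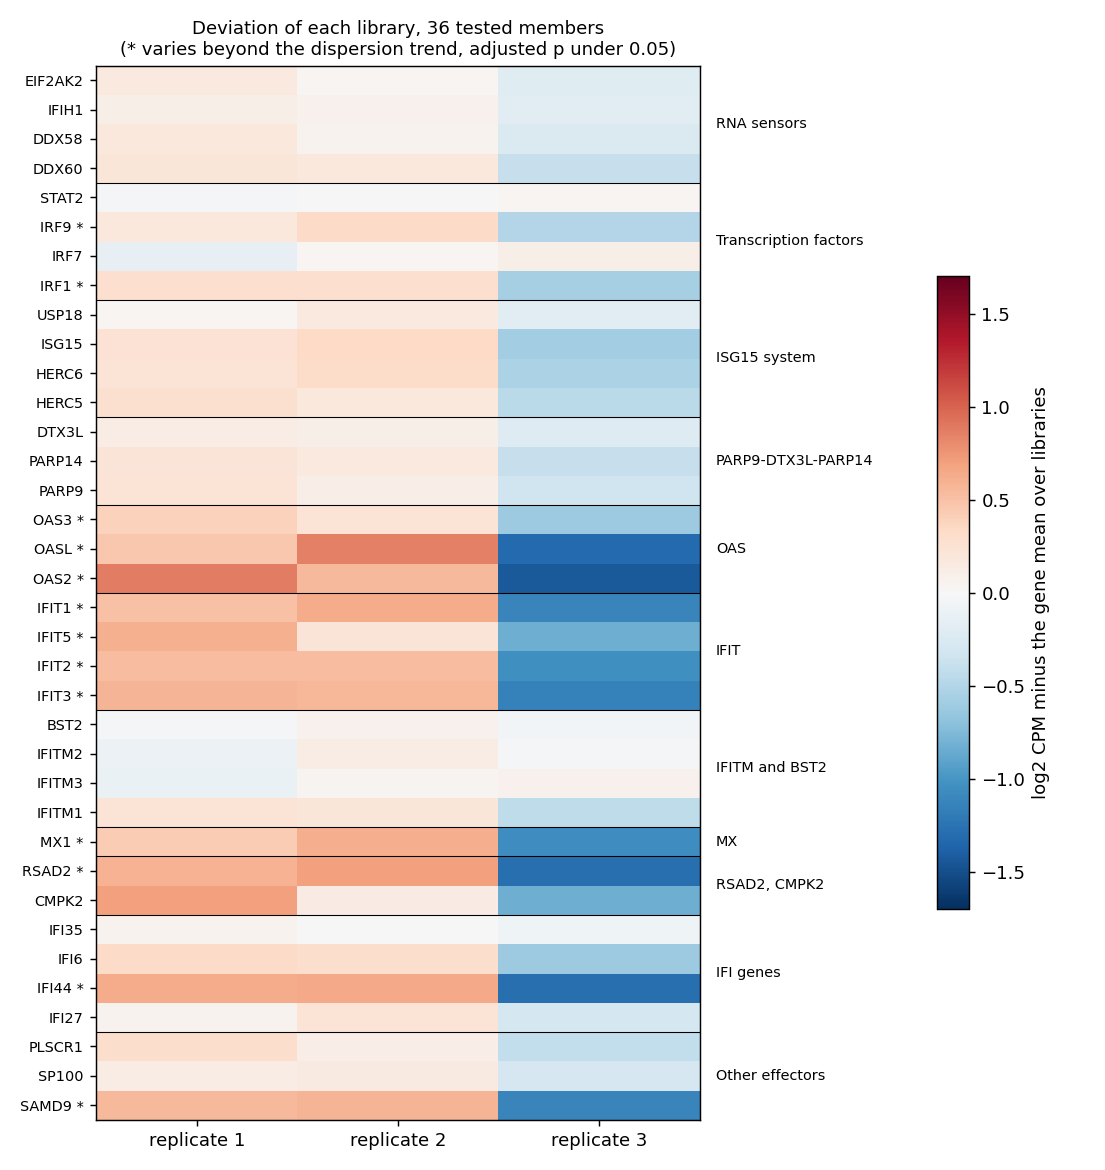
Log2 CPM (counts scaled by library total with TMM factors, not by length) minus the gene mean over the 3 libraries (columns) for the 36 tested genes (rows, by role), red above and blue below the mean, with an asterisk on genes that varied beyond the dispersion trend. The replicate 3 column is blue in the OAS, IFIT and MX rows and near white for BST2, IFITM2, IFITM3, STAT2 and IFI35.

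The 5 genes with the lowest adjusted p were each lowest in replicate 3 by a wide margin. On the CPM scale, which takes no account of gene length, MX1 had 15.3, 17.6 and 5.46 in replicates 1, 2 and 3 (edgeR adjusted p = 8.26e-08). The value of replicate 3 was 0.356 times that of replicate 1 and 0.311 times that of replicate 2. OAS3 had 36.5, 32.8 and 18.1 CPM (edgeR adjusted p = 6.33e-05) and IFIT1 6.77, 7.37 and 2.14 CPM (edgeR adjusted p = 6.9e-05). OAS2 had 2.21, 1.77 and 0.394 CPM (edgeR adjusted p = 0.000505). OASL, a relative that lacks synthetase activity and promotes RIG-I signalling, had 1.87, 2.48 and 0.493 CPM (edgeR adjusted p = 0.00081). OAS2 and OASL in replicate 3 rested on 12 and 15 counts, so the size of these differences is less certain than for OAS3, with 551 counts.

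All 4 IFIT genes, clustered on chromosome 10 between 89301949 and 89421002, were among the called genes. IFIT2 had 3.07, 3.08 and 0.986 CPM, IFIT3 had 2.02, 1.99 and 0.572 CPM and IFIT5 had 5.79, 4.44 and 2.10 CPM, with edgeR adjusted p of 0.00896, 0.0117 and 0.0163. The replicate 3 value over that of replicate 1 ranged from 0.283 (IFIT3) to 0.363 (IFIT5). RSAD2 had 2.24, 2.41 and 0.559 CPM, IFI44 had 1.68, 1.69 and 0.394 CPM, and SAMD9, a growth-restraining antiviral gene, 2.35, 2.41 and 0.690 CPM, with edgeR adjusted p of 0.00145, 0.00618 and 0.00833. Again replicate 3 alone was low. The 2 called transcription factors differed less: IRF1 had 20.8, 20.9 and 11.6 CPM and IRF9 22.1, 24.6 and 13.9 CPM (edgeR adjusted p = 0.0109 and 0.0249).

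The other 23 tested genes did not pass, although 8 of them had an unadjusted p under 0.05. Near the threshold were PARP14 with 47.8, 45.8 and 31.2 CPM (edgeR adjusted p = 0.0538), IFI6 with 12.1, 11.9 and 6.31 CPM (0.0592), ISG15 with 10.7, 11.4 and 5.95 CPM (0.0979) and CMPK2 with 2.13, 1.43 and 0.690 CPM (0.101). HERC6 had 10.9, 11.5 and 6.36 CPM (0.19) and PARP9 39.0, 35.8 and 26.2 CPM (0.181). The 8 also held DDX60 with 19.1, 18.9 and 12.7 CPM (edgeR adjusted p = 0.391) and PLSCR1 with 9.98, 8.76 and 6.05 CPM (0.724). EIF2AK2 had 80.3, 73.5 and 61.9 CPM, IFIH1 45.0, 44.4 and 37.3 CPM, DDX58 34.3, 31.7 and 25.6 CPM, DTX3L 50.2, 49.0 and 39.5 CPM and USP18 30.2, 33.1 and 25.9 CPM. EIF2AK2, IFIH1, DDX58, DTX3L and USP18 too were lowest in replicate 3, each with an unadjusted edgeR p above 0.05. By their coefficient of variation, the 4 most even of the 43 genes were STAT2 with 74.9, 75.6 and 77.5 CPM, BST2 with 116, 125 and 115 CPM, IFITM3 with 34.7, 38.7 and 39.4 CPM and IFI35 with 17.7, 17.1 and 16.1 CPM. Genes of 1 role thus held different values: IRF9 and IRF1 passed and STAT2 and IRF7 did not, which was not itself tested as a difference.

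Taken over the list, 32 of the 36 tested genes were lowest in replicate 3 (88.9%), against 39.9% of all tested genes. The other 4, IFITM2, IFITM3, STAT2 and IRF7, were lowest in replicate 1 on the CPM scale. The median log2 deviation from the gene mean was 0.23, 0.19 and -0.44 in replicates 1, 2 and 3 for the members, and 0.00, 0.00 and 0.00 over all tested genes. These deviations are not independent, since a low replicate 3 lowers the gene mean and so raises those of replicates 1 and 2. The median CPM ratio of replicate 3 was 0.615 to replicate 1 and 0.628 to replicate 2, 2 comparisons that share replicate 3, while that of replicate 2 to replicate 1 was 1.0. Over all tested genes the 3 medians lay at 1.0. By role, the median ratio of replicate 3 to replicate 1 was 0.264 for the tested OAS genes, 0.319 for IFIT genes, 0.580 for the ISG15 system, 0.670 for PARP9, DTX3L and PARP14, 0.759 for the RNA sensors and 1.02 for the IFITM genes with BST2.

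**Figure D3:**
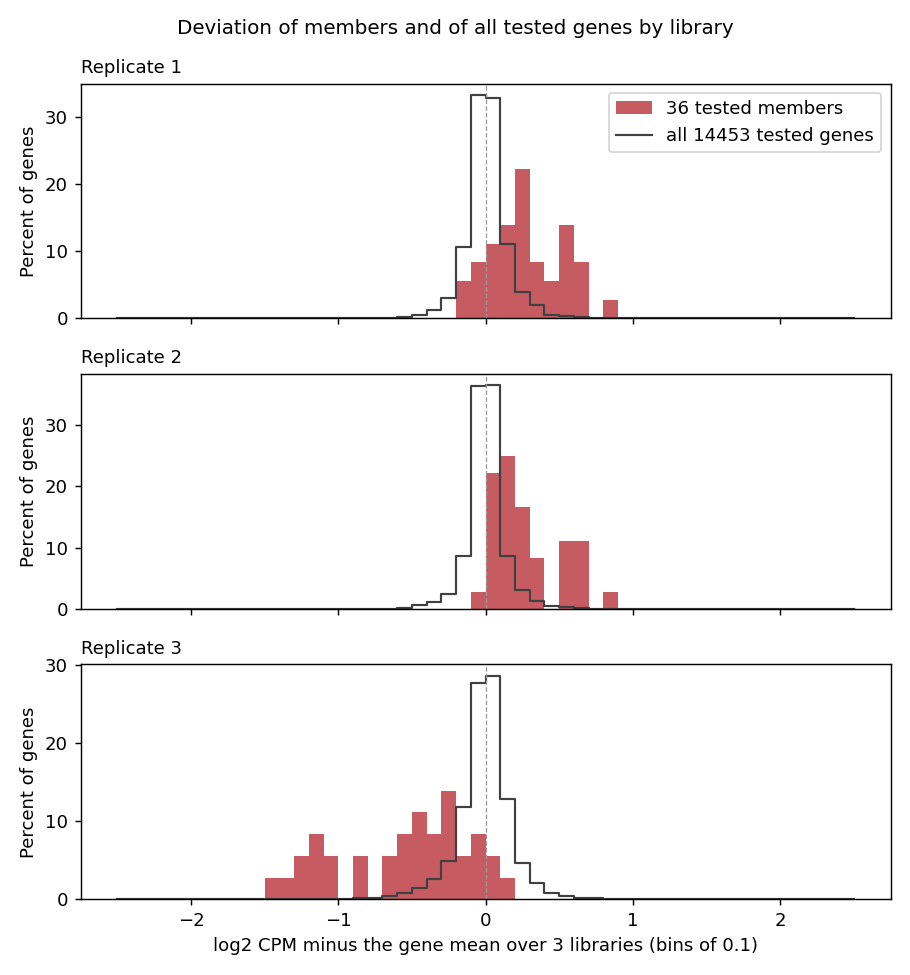
Percent of genes (y axis) by log2 CPM minus the gene mean (x axis, bins of 0.1) in each library, with filled bars for the 36 tested members and a line for all 14453 tested genes. Member bars lie mostly right of 0 in replicates 1 and 2, with medians of 0.23 and 0.19, and mostly left of 0 in replicate 3, with a median of -0.44 and a lowest value of -1.42. The mean includes all 3 libraries, so a low replicate 3 by itself moves the bars of replicates 1 and 2 to the right.

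Of the 16 tested members under 10 CPM, 9 were called, against 49 of 4456 genes in that range (1.10%), and of the 20 at 10 CPM or above 4 were called, against 141 of 9997 (1.41%). The difference between these ranges of level was not tested. The response element match was found in 8 of the 10 called genes with a window and in 14 of the 20 that were tested and not called, so both kinds mostly carried it. The summed immune markers in CPM were 7.38, 5.77 and 6.59, lowest in replicate 2. The 7 luminal markers summed to 5690, 6356 and 7185 CPM, highest in replicate 3, as was the total count. The part of these values and of depth in the result was not tested.

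The 7 members not tested had few counts. IFI44L had 24, 24 and 1 counts and OAS1 25, 41 and 7 counts in replicates 1, 2 and 3, and with no filter on low counts both were called, for 15 of 43. MX2 had 12, 20 and 10 counts, SAMD9L, a relative of SAMD9, 12, 8 and 2, and XAF1, which favours cell death, 12.3, 14.9 and 5.0. Each of these 5 was lowest in replicate 3, so that 37 of the 43 genes were. TRIM22, an antiviral ubiquitin ligase gene, had 3, 3 and 8 counts, and EPSTI1 had 9, 6 and 12, both highest in replicate 3. Counts this low order the libraries only loosely in any of these 7 genes.

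The rest of the interferon pathway was described by 53 further genes, from lists of ligands, receptors, signalling proteins and regulators. Transcripts of interferons themselves were close to absent from the counts. Of 17 type I ligand genes none was detected, and 13 were at 0 counts in every library. IFNA5 had 1.5, 1 and 2 counts in replicates 1, 2 and 3, IFNB1 2, 1 and 1, IFNA21 0.5, 0 and 1 and IFNW1 0, 0 and 1. Among type II and III ligands, IFNG had 0 counts in each library and IFNL1 2, 4 and 2 counts. IFNL2 had 1, 2 and 0 counts and IFNL3 1, 0 and 2. A count of 0 allows up to 3 counts in a library, and amounts under that were not detectable at this depth.

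The 6 receptor genes and 4 genes of signal carriers were all detected, and none varied beyond the trend in edgeR, nor at an unadjusted p under 0.05. IFNAR1 had 36.6 ± 1.36 TPM and IFNAR2 6.18 ± 0.434 TPM. For type II interferon, IFNGR1 had 35.0 ± 4.38 and IFNGR2 22.1 ± 0.349 TPM, or 36 TPM when only exons on chromosome 21 set the length. For type III interferon, IL10RB had 29.3 ± 2.84 and IFNLR1 2.45 ± 0.220 TPM. The signal carriers STAT3, TYK2, JAK1 and JAK2 had 136 ± 7.64, 99.3 ± 3.83, 33.6 ± 2.39 and 30.1 ± 1.73 TPM.

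**Figure D4:**
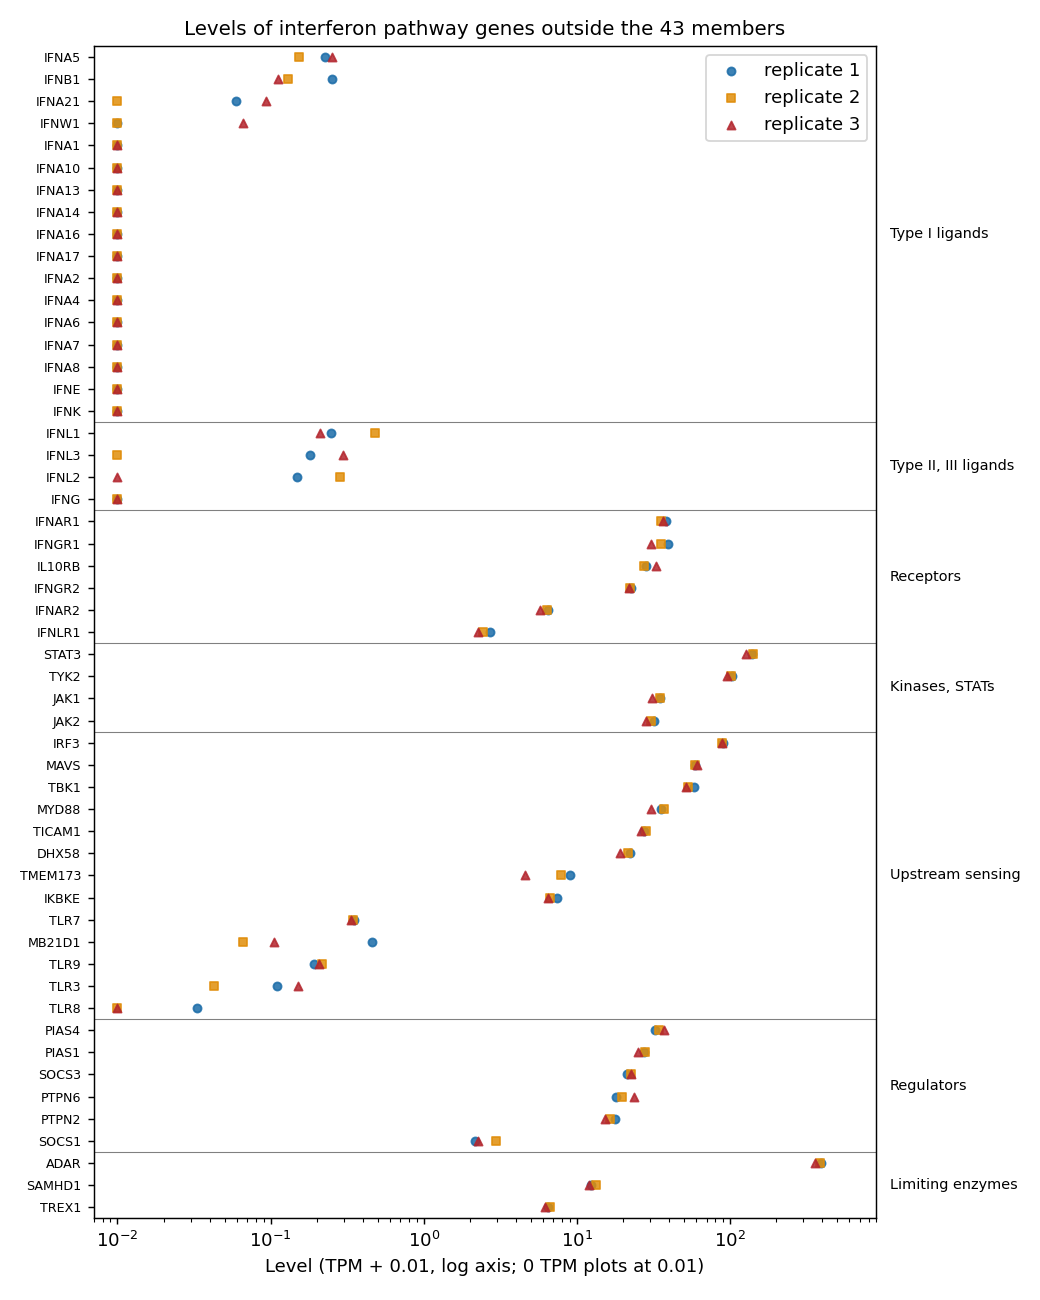
Level of 53 interferon pathway genes outside the 43 (rows, by list) as TPM + 0.01 on a log axis, with 1 marker for each library. Ligand genes sit at or near the left end, receptors between means of 2.45 and 36.6 TPM, and ADAR farthest right at 378 TPM.

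Of 13 genes that act in nucleic acid sensing upstream of interferon, 9 were detected. IRF3, the factor that starts IFNB1 transcription, had 88.5 ± 0.741 TPM, the mitochondrial adaptor gene MAVS 59.6 ± 0.703, the kinase gene TBK1 54.2 ± 3.30 and the adaptor gene MYD88 34.3 ± 3.33 TPM. The cytosolic DNA sensor gene MB21D1 (cGAS) had 8, 1 and 2 counts, and TMEM173 (STING), its downstream adaptor, had 8.97, 7.85 and 4.55 TPM (edgeR adjusted p = 0.349, unadjusted p = 0.0112). Of the receptors for endosomal nucleic acids, TLR7 alone was detected, with 16.8, 16.7 and 19.1 counts. TLR3 had 3, 1 and 5 counts, TLR8 1, 0 and 0, and TLR9 7, 8 and 9. MB21D1, TMEM173 and these 4 were named after their values were seen. Among 6 regulators PIAS4 had 34.5 ± 2.52, PIAS1 26.6 ± 1.57, SOCS3 22.2 ± 0.782 and PTPN6 20.4 ± 2.92 TPM. Of 3 enzymes that act on nucleic acids or nucleotides, ADAR, which edits double-stranded RNA, was highest at 378 ± 18.5 TPM. SAMHD1, which breaks down deoxynucleotide triphosphates, had 12.5 ± 0.746 TPM and TREX1, a DNA exonuclease gene, 6.45 ± 0.241 TPM. Of the 28 pathway genes tested, none was called by edgeR, with 1, TMEM173, at an unadjusted p under 0.05.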

How the data were processed

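Per the labels' protocols, poly-A RNA was made into stranded libraries and sequenced on an Illumina instrument. The authors deposited expected counts per gene (not all whole: 83.0, 83.3 and 82.9% of non-zero values were whole within 1e-08 in replicates 1, 2 and 3) and a length in bases, which the deposited table gives as another column. The submitters' processing notes name hg38 and the tools TopHat, featureCounts and Subread, with no versions or settings for strand and multiple alignments. In 14 members some values were fractional.

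TPM was computed from counts and lengths. Counts were rounded and fitted in edgeR 4.0.16 (R 4.3.3) with TMM factors of 1.01, 1.00 and 0.990, filterByExpr and an intercept. Residual deviance under the trended dispersion was tested against chi-square with 2 degrees of freedom, with Benjamini-Hochberg adjustment over 14453 genes, and log2 CPM used a prior count of 2. The test was also run on counts simulated from the same trended dispersion, with changes placed only in genes above a minimum mean count. That run cannot show how scatter of single genes about the trend, or low counts, affect the calls. There are no groups to compare, so no quasi-likelihood contrast was possible. Python 3.11.15 was used for ratios and sign flips. Whether replicates came from separate cultures is not stated beyond the word biological, so p-values speak for these libraries only.

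Members, lists and tests were chosen with earlier results of these data known. By rule all members were named, with receptors, the 4 highest of each pathway list and any pathway gene called variable. Results on 2 genes of the pathway lists are not reported here. Alternatives were other count minimums, length scaling, noise models, normalizations (DESeq2 1.42.0 size factors), filters, pseudocounts and leaving out each library. Values after ± are the SD over the libraries, while floors on counts cover counting error only.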

Additional observations from a re-analysis of the deposited data

How the results depend on the processing

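The count of 13 members that varied between libraries was 13 with DESeq2 size factors and with a minimum of 10 counts in each library, 15 on library totals, 15 with no filter and 17 with a common dispersion, each time with the 13 included. Beyond Poisson sampling alone it was 32 of 36, and 6017 genes were called in that way (41.6%), against 190. Leaving out 1 library gave 0 to 8 members and 25 to 94 genes. The median level of 7.40 TPM became 9.34 as CPM without division by length and 11.2 TPM over detected members, and stayed between 6.85 and 8.40 TPM without 1 library. The log2 ratio of OAS1 over OAS2 reversed to -0.73 on CPM. IFIT1 over IFIT5 ranged from -0.11 to 0.25 when 1 library was left out. Counts of detected members ran from 29 to 43 over all alternatives, and the median deviation of replicate 3 from -0.46 to -0.44. Members under about 20 counts in a library limit the size, not only the call, of a difference. No paired analysis was possible because there is only 1 group.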
